A study of Mus musculus with 6 samples.

Results

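The myogenic basic helix-loop-helix (bHLH) factors Myod1, Myf5, Myf6 and Myog, the MEF2 factors Mef2a, Mef2c and Mef2d, and the E proteins Tcf12, Tcf3 and Tcf4 were followed in an ATAC-seq comparison of control and Taf4a sKO muscle stem cells (MuSCs). All peaks that carry the symbol of a member were taken, together with peaks without an assigned gene that lie between the start and the end of a member. This gave 85 of the 75412 peaks of the table, namely 2 peaks of Myod1, 4 of Myf5, 4 of Myf6, 3 of Myog, 3 of Mef2a, 3 of Mef2c, 6 of Mef2d, 7 of Tcf12, 2 of Tcf3 and 51 of Tcf4. No peak carried the symbol of Mef2c, so that the span of this gene was taken from GENCODE vM21, which gave the same span as the table for each of the other 9 genes. Peaks inside a member that are assigned to another gene were not counted, which concerned 7 peaks in Tcf12, 1 in Tcf3 and 1 in Tcf4.

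ATAC-seq uses the Tn5 transposase to insert sequencing adapters into accessible DNA, and each library was prepared from 50000 freshly isolated MuSCs of C57BL/6 mice. In the study's description, mice of both genotypes carried floxed Taf4a alleles (fl/fl), in which a segment that includes exon 12 can be removed. Taf4a sKO mice also carried a tamoxifen-inducible Cre driven by Pax7, which is active in MuSCs, and received tamoxifen by intraperitoneal injection at an age between 8 and 20 weeks. Animals of both sexes were used. Controls were littermates with or without the Cre allele, and their libraries are labelled WT. The labels state neither whether a control carried Cre nor whether it was given tamoxifen. Taf4a encodes a subunit of TFIID, the general factor that binds core promoters, and the comparison asks how accessible chromatin differs once MuSCs have lost it. There were 3 libraries of each genotype, described in the study as biological replicates.

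The values are read counts per peak that were scaled for sequencing depth and rounded, and their sums over all peaks were 37722015, 35226223 and 42803315 in control replicates 1 to 3 and 44311913, 41661725 and 41948821 in Taf4a sKO replicates 1 to 3. Differences were tested with limma on log2(value + 1) in the 75384 peaks with a mean value above 10, which included all 85 peaks of the 10 genes, and an adjusted p (Benjamini-Hochberg) under 0.05 is a call. Log2 fold changes compare Taf4a sKO with control and understate the change of low peaks. The median of all peaks tested was 0.11, and TMM scaling moved it to -0.01, so that the TMM value is given for each peak described here whose call it changed.

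Myod1 and Myf5 commit cells to the muscle lineage, Myog drives terminal differentiation, and Myf6 is expressed mainly in differentiating cells and myofibers. These factors bind the E-box, CANNTG, as dimers with the ubiquitous E proteins encoded by Tcf12 (HEB), Tcf3 (E12 and E47) and Tcf4 (E2-2), whereas MEF2 factors bind an AT-rich element and act together with the bHLH dimers on muscle genes. In quiescent MuSCs Myf5 and Myod1 transcripts can be present before the proteins act, and Myog is characteristic of later, differentiating cells.

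Sequences are shown first for the Myog and Myf5 promoters and for the called peaks with the largest rise or fall in Myf5, Myf6, Mef2d and Tcf12, in lower case with CANNTG (the E-box of the bHLH dimers) and TGACTCA or TGAGTCA (the element bound by AP-1 factors) in capitals. RefSeq start sites define the promoters, which are printed for the 250 bases before the start on the strand of the gene, and the other 6 sequences are the central 200 bases of a peak on the plus strand of GRCm38.p6. The Myog promoter (chr1:134289754-134290003), the Mef2d intron 3 sequence (chr3:88157920-88158119) and the Tcf12 intron 5 sequence (chr9:71976115-71976314) lie in peaks that fell in Taf4a sKO MuSCs. The upstream sequences of Myf5 (chr10:107488522-107488721), Myf6 (chr10:107499772-107499971) and Mef2d (chr3:88133338-88133537) and the Tcf12 intron 12 sequence (chr9:71878120-71878319) lie in peaks that rose, and the Myf5 promoter (chr10:107486135-107486384) is shown for comparison with its upstream peak.
Myog promoter: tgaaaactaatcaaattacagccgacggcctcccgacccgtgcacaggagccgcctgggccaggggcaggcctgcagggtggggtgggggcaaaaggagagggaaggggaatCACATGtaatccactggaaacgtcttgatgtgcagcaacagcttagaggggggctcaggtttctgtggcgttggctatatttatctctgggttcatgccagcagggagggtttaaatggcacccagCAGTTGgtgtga
Myf5 promoter: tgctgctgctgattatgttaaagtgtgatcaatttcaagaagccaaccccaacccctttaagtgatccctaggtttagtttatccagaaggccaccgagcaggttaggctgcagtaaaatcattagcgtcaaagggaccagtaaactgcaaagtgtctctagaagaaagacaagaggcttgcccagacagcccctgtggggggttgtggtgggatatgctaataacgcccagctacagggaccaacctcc
Myf5 upstream peak: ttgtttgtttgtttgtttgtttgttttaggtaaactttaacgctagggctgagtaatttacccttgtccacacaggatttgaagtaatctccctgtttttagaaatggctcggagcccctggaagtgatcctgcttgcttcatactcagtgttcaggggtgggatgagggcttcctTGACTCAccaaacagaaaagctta
Myf6 upstream peak: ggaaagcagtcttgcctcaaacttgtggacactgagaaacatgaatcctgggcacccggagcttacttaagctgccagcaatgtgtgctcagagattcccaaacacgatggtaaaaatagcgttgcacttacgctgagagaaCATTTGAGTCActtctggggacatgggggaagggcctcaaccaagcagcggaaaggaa
Mef2d upstream peak: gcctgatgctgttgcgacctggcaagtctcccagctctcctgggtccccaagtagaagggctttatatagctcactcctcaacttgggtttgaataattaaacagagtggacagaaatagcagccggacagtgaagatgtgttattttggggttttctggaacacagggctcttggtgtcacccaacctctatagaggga
Mef2d intron 3 peak: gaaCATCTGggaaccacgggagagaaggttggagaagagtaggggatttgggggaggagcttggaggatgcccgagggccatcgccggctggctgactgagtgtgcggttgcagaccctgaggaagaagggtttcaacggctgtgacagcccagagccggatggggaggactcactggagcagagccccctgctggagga
Tcf12 intron 12 peak: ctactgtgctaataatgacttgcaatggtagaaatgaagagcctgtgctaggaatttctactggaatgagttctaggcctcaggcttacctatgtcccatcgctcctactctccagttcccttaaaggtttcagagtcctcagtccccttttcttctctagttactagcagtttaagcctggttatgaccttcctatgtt
Tcf12 intron 5 peak: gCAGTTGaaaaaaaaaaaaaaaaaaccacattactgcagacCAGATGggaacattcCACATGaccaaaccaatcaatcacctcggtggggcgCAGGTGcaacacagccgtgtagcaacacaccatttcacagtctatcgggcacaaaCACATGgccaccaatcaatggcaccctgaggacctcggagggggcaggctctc
In the Myf6 sequence an E-box and TGAGTCA overlap, and in the Myf5 promoter and the Mef2d upstream and Tcf12 intron 12 sequences neither motif was found. CANNTG was present in 66.2% of the 32851 RefSeq promoters over the same 250 bases and TGACTCA or TGAGTCA in 4.46%, and a match is a description of letters only.

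At the targeted gene, named Taf4 in the table, the peak over exon 12 (chr2:179922849-179923263) had values of 65, 78 and 137 in control and 44, 22 and 25 in Taf4a sKO libraries. All 3 Taf4a sKO values lay below the lowest control value, and the peak fell by 1.58 ± 0.30 (SE) on the log2 scale (limma, adjusted p = 0.00034). The promoter peak of Taf4 (chr2:179975752-179977530) had mean values of 2226 ± 201 and 2108 ± 14.8 (control and Taf4a sKO, SD, n = 3 each) and was not called (log2 fold change -0.07, limma, adjusted p = 0.59, or -0.19 and 0.0099 with TMM scaling). The other 3 peaks of Taf4, described after their values were seen, also passed the test. A peak that overlaps intron 7 and an exon (chr2:179931701-179932202) fell by 0.83 on the log2 scale (limma, adjusted p = 0.00014), a peak in intron 14 (chr2:179916955-179917641) fell by 0.49 (adjusted p = 0.027), and a peak upstream of the gene (chr2:179979788-179980166) rose by 0.55 (adjusted p = 0.003), so that differences at Taf4 were not limited to exon 12.

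Of the 85 peaks, 35 were higher in Taf4a sKO MuSCs, against 28.0% of all peaks tested, 7 were lower, against 13.9% of all peaks, and 43 passed the test in neither direction (limma, adjusted p under 0.05). The higher peaks made up 41.2% of the members and the lower ones 8.24%, with a median log2 fold change of 0.30 over all members. Tcf4 carried most of this difference from the whole table: it held 27 of the 35 higher peaks, and among the 34 peaks of the other 9 genes 8 were higher (23.5%) and 5 lower (14.7%), with a median of 0.11. With TMM scaling 34 peaks were higher and 14 lower, against 25.4% and 22.3% of all peaks, and with quantile normalization 27 and 16, against 24.8% and 25.1% of all peaks. Without Tcf4 these numbers were 7 and 11 with TMM and 6 and 11 with quantile normalization. The values of the 2 genotypes did not overlap in 42 peaks with higher Taf4a sKO values, against 32.3% of all peaks, and in 10 peaks with lower values, against 18.0%. By the thresholds of the study's methods, a log2 ratio of the group means above 1 (gained) or below -1 (lost), 4 members were gained, against 7.02% of all peaks, and 1 was lost, against 5.36%. All 5 belonged to Tcf4. In a population of cells a difference in the share of cells with an open region cannot be told apart from a difference in how open it is in each cell. Summed over the peaks of a gene, Myog lay below the control values in every Taf4a sKO library, Myod1, Myf6 and Tcf4 lay above them, and the other 6 genes overlapped between genotypes.

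**Figure D1:**
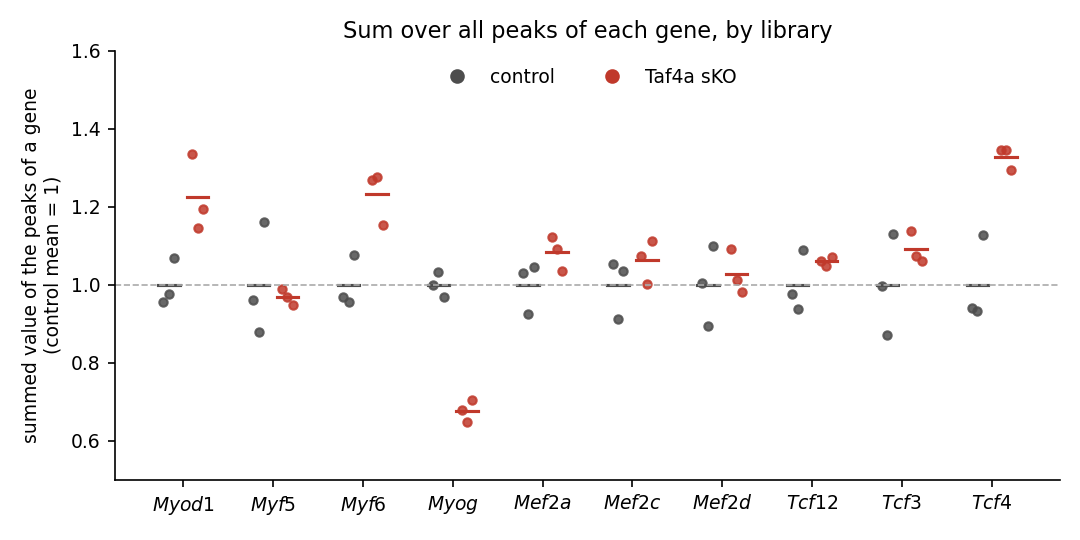
The summed normalized value of all peaks of each gene is plotted for every library relative to the control mean of that gene (y axis, linear; dots are libraries, bars are means of 3, grey control, red Taf4a sKO). Myog sums in Taf4a sKO libraries were 32.3% below the control mean, those of Myod1, Myf6 and Tcf4 were 22.5%, 23.2% and 32.8% above it, and the points of the other genes interleave. With TMM scaling log2 ratios were 0.18 for Myod1 (0.29 as plotted), 0.19 for Myf6 (0.30), 0.30 for Tcf4 (0.41) and -0.68 for Myog (-0.56).

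Levels differed widely among the genes before any comparison of genotypes. In control MuSCs the peak nearest an annotated start site held, per kb of peak, a value of 2550 at Mef2d, 2250 at Mef2a, 2130 at Tcf3 and 1260 at Tcf12, and 959 at Myf5 and 851 at Myod1. The nearest peak of Tcf4, at an alternative start site, held 436 per kb, and the peak at its principal start site held 2110. The nearest peak of Myf6 held 407, that of Myog 372 and that of Mef2c 196. In this measure the control libraries of Mef2d, Mef2a and Tcf3 overlapped, as did those of Myf5 and Myod1, and those of Tcf4, Myf6 and Myog, whereas the other neighbours in this order did not. Among these 10 peaks 2 rose (Myod1 and Tcf4), 1 fell (Myog) and 7 did not pass the test, against 28.0% higher and 13.9% lower among all peaks. With TMM scaling those of Myf5 and Myf6 were called lower as well, against 22.3% lower among all peaks.

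**Figure D2:**
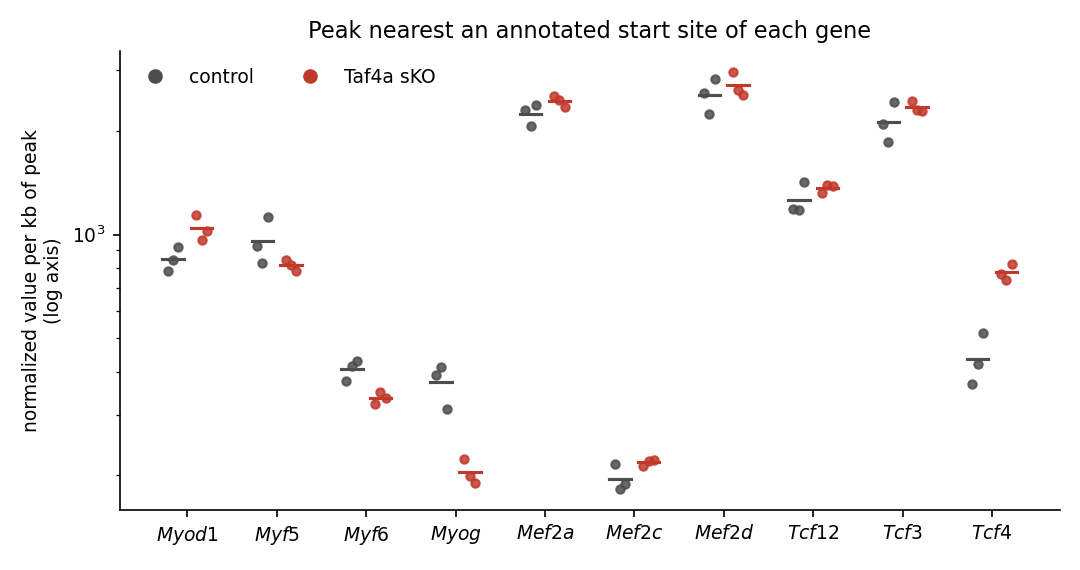
Normalized value per kb of the peak nearest an annotated start site of each gene (y axis, logarithmic), with 1 dot per library and a bar at the mean of 3 libraries, grey for control and red for Taf4a sKO. Only the Myod1 and Tcf4 peaks lie above, and the Myog and Myf6 peaks below, the control values in all 3 Taf4a sKO libraries, and the Myf6 difference was not called (adjusted p = 0.11).

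Myod1, which is transcribed early in MuSC activation, had a promoter peak (chr7:46375844-46377867) that reaches over exon 1. It had values of 1591, 1710 and 1866 in control and 2302, 1949 and 2076 in Taf4a sKO MuSCs. The genotypes did not overlap, and the peak rose by 0.29 ± 0.11 (SE) on the log2 scale (limma, adjusted p = 0.028, or 0.18 and 0.023 with TMM scaling). The call was lost without control replicate 1 (log2 fold change 0.24, adjusted p = 0.18), without Taf4a sKO replicate 1 (0.23 and 0.17) and without Taf4a sKO replicate 3 (0.30 and 0.084), although the log2 fold change stayed close to that with all libraries. The small peak at the 3′ end of the gene (chr7:46379045-46379306) had a log2 fold change of 0.30 with overlapping values (limma, adjusted p = 0.095). Both peaks together summed to 2029 ± 121 in control and 2484 ± 201 in Taf4a sKO MuSCs (SD, n = 3 each, two-sided exact permutation test, p = 0.1, which is the lower limit for groups of 3).

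Beyond the Myod1 gene, 2 peaks without an assigned gene lie within 50000 bp upstream, and both were named after their values were seen. The stronger, 38688 bp from the gene (chr7:46337302-46338271), had values of 1735, 1559 and 2077 in control and 2551, 2303 and 2353 in Taf4a sKO libraries. Its Taf4a sKO values all exceeded the control values, with a log2 fold change of 0.43 ± 0.11 (SE, limma, adjusted p = 0.0029). The other, 14492 bp away, rose by 1.24 ± 0.36 (SE) from a low mean of 13.7 to 34.0 (limma, adjusted p = 0.0068). Which gene such peaks act on is not known from these data.

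Myf5, the earliest of these factors in development and a gene that most quiescent MuSCs transcribe, shares a locus with Myf6. Its broad promoter peak (chr10:107484699-107487079) had values of 2202, 1975 and 2671 in control and 2011, 1944 and 1862 in Taf4a sKO MuSCs. The genotypes overlapped and the log2 fold change of -0.22 ± 0.11 (SE) did not pass the test (limma, adjusted p = 0.11), whereas with TMM scaling it was -0.34 (adjusted p = 0.00027). In the opposite direction, the peak centred at -2487 bp from the start site (chr10:107488427-107488815), which holds the TGACTCA printed above, had values of 286, 270 and 358 in control and 420, 430 and 471 in Taf4a sKO libraries. All Taf4a sKO values exceeded the control values, and the peak rose by 0.54 ± 0.14 (SE) on the log2 scale (limma, adjusted p = 0.0033).

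The remaining peaks of Myf5, at -1459 and 6942 bp from the start site, had log2 fold changes of 0.23 and 0.41 and did not pass the test (limma, adjusted p = 0.14 and 0.11). The log2 ratio of the promoter peak to the sum of the other peaks differed by -0.59 between Taf4a sKO and control, without overlap (two-sided exact permutation test, p = 0.1, the lower limit), and the sum of all 4 peaks overlapped, with means of 3148 ± 458 and 3048 ± 64.1 (SD, n = 3 each). Such a ratio within a library does not depend on the scaling between libraries.

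At Myf6 (Mrf4), too, peaks in the gene and upstream of it had log2 fold changes of opposite sign. The peak inside the gene, 1031 bp after the start site (chr10:107493303-107494109), had values of 303, 335 and 346 in control and 260, 281 and 270 in Taf4a sKO MuSCs. Taf4a sKO values were lower in each library, but the log2 fold change of -0.28 ± 0.14 (SE) was not called (limma, adjusted p = 0.11, or -0.39 and 0.012 with TMM scaling). Upstream, at -5134 bp from the start site (chr10:107499558-107500184), values were 475, 475 and 606 in control and 784, 717 and 694 in Taf4a sKO libraries. These values did not overlap, and the peak, which holds the TGAGTCA printed above, rose by 0.50 ± 0.13 (SE) on the log2 scale (limma, adjusted p = 0.0025).

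A further peak at -8797 bp from the start of Myf6 rose by 0.41 ± 0.12 (SE, limma, adjusted p = 0.0072, or 0.083 with quantile normalization), from a mean of 624 to 832. The peak at -3672 bp had a log2 fold change of 0.13 with overlapping values. Of the 5 peaks upstream of Myf5 or Myf6, 3 rose and none fell, with a median log2 fold change of 0.41, against 28.0% higher among all peaks. With quantile normalization 2 of the 5 were higher. Summed over its peaks, Myf6 reached 1634 ± 108 in control and 2013 ± 113 in Taf4a sKO MuSCs, without overlap (SD, n = 3 each, two-sided exact permutation test, p = 0.1). Farther upstream, a peak 41952 bp from Myf6 (chr10:107536562-107536817) had values of 19, 24 and 28 in control and 51, 73 and 49 in Taf4a sKO libraries, the largest rise among the flanking peaks together with that upstream of Myod1 (log2 fold change 1.24 ± 0.28 (SE), limma, adjusted p = 0.00091).

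**Figure D3:**
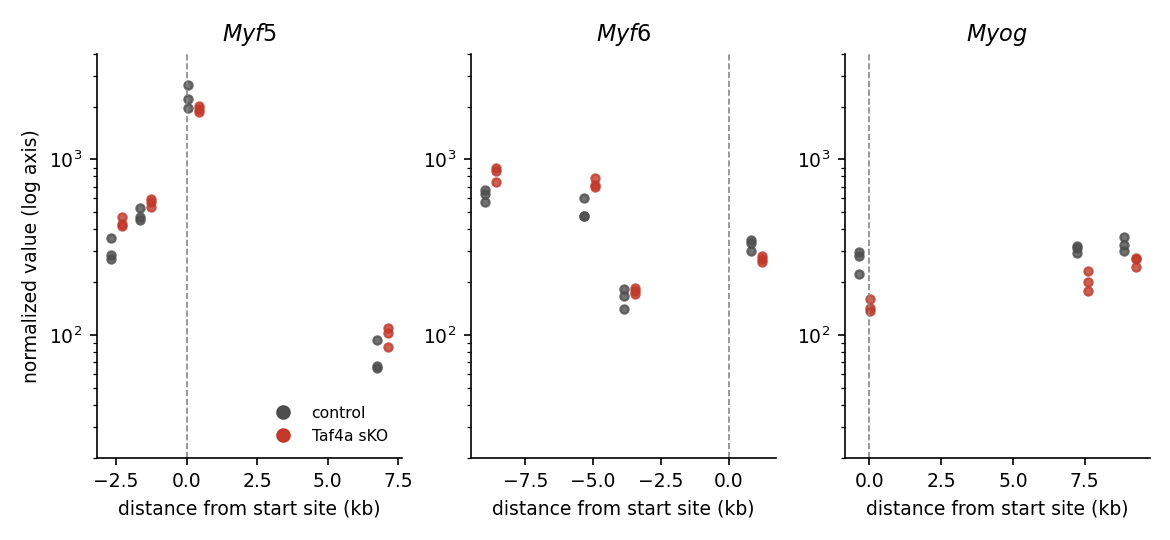
Normalized values (y axis, logarithmic) of the peaks of Myf5, Myf6 and Myog in each library against the distance of the peak centre from the start site (x axis, kb, upstream negative; control grey and Taf4a sKO red, drawn slightly to either side of the centre). In 4 of the 5 upstream peaks of Myf5 and Myf6 all red points lie above the grey ones, against 32.3% of all peaks, and at the peaks at or after the start sites of Myf6 and Myog they lie below them.

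Myog was the member in which every peak was lower in each Taf4a sKO library. Its promoter peak (chr1:134289466-134290185), which contains the promoter printed above with CACATG and CAGTTG in capitals, had values of 282, 297 and 224 in control and 160, 143 and 137 in Taf4a sKO MuSCs. The highest Taf4a sKO value lay below the lowest control value, and the peak fell by 0.86 ± 0.16 (SE) on the log2 scale (limma, adjusted p = 0.00013). Leaving out any of the 6 libraries gave log2 fold changes between -0.98 and -0.78, all of them called.

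Of the 2 peaks downstream of Myog, the one 7421 bp after the start site (chr1:134297123-134297697) had values of 322, 314 and 294 in control and 179, 200 and 231 in Taf4a sKO libraries. It fell by 0.61 ± 0.15 (SE, limma, adjusted p = 0.0017), again without overlap. The other, 9079 bp after the start site, had means of 328 and 264 and was not called (log2 fold change -0.31, limma, adjusted p = 0.075, or -0.42 and 0.0056 with TMM scaling). In sum the Myog peaks reached 906 ± 28.5 in control and 614 ± 26.0 in Taf4a sKO MuSCs (SD, n = 3 each, two-sided exact permutation test, p = 0.1). Of 5 flanking peaks within 50000 bp of Myog, 4 were lower (log2 fold changes from -1.12 to -0.61, against 13.9% lower among all peaks) and 1, the most distant, was higher (0.36, limma, adjusted p = 0.044, or 0.067 with TMM scaling). These were described after their values were seen.

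Of the 12 peaks of the 3 MEF2 genes, 2 rose, 2 fell and 8 did not pass the test, with a median log2 fold change of 0.06, against 28.0% higher and 13.9% lower among all peaks. With TMM scaling 1 was higher and 4 were lower (median -0.05), against 25.4% and 22.3% of all peaks. Mef2a, which is broadly expressed, had no called peak. Its promoter peak (chr7:67372181-67373721) had values of 3541, 3180 and 3654 in control and 3898, 3781 and 3629 in Taf4a sKO MuSCs, which overlapped (log2 fold change 0.13 ± 0.10 (SE), limma, adjusted p = 0.32).

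Outside Mef2a, 12543 bp upstream of the gene (chr7:67384960-67385842), lay the peak with the largest called fall among all 22 peaks without a gene that flank the members within 50000 bp (5 higher, 22.7%, and 8 lower, 36.4%, against 28.0% and 13.9% of all peaks, median log2 fold change -0.25). Its values were 427, 402 and 418 in control and 140, 148 and 148 in Taf4a sKO MuSCs. Values within each genotype lay close together, the peak fell by 1.51 ± 0.14 (SE) on the log2 scale (limma, adjusted p = 2.7e-08), and it met the threshold for a lost peak. Of the 5 flanking peaks upstream of Mef2a, 2 were lower and 3 were not called, and with TMM scaling 3 were lower.

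Mef2c, which is required for heart and muscle development, was accessible at low levels in these cells. The peak at an internal start site (chr13:83523663-83525091) had values of 308, 261 and 269 in control and 305, 315 and 317 in Taf4a sKO MuSCs and was not called (limma, adjusted p = 0.36). In intron 1 a peak (chr13:83518023-83518683) had a log2 fold change of 0.36 ± 0.14 (SE), just past the threshold (limma, adjusted p = 0.049, or 0.13 with TMM scaling). In intron 4 another (chr13:83603866-83604762) fell by 0.59 ± 0.22 (SE, limma, adjusted p = 0.038), with overlapping values of 135, 121 and 200 in control and 108, 71 and 123 in Taf4a sKO libraries. Without control replicate 3 that value was -0.38 (adjusted p = 0.14) and without Taf4a sKO replicate 2 it was -0.36 (0.19), so that neither call at Mef2c held in all settings.

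Mef2d, which has a muscle-specific splice form, had the strongest promoter signal per length among the MEF2 genes. The promoter peak (chr3:88141874-88143282) had values of 3634, 3165 and 3985 in control and 4190, 3705 and 3592 in Taf4a sKO MuSCs and did not pass the test (log2 fold change 0.09 ± 0.11 (SE), limma, adjusted p = 0.51). An upstream peak at -8935 bp from the start site (chr3:88133143-88133731) had values of 325, 279 and 322 in control and 520, 478 and 422 in Taf4a sKO libraries. It rose without overlap, by 0.61 ± 0.14 (SE, limma, adjusted p = 0.00084).

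Within Mef2d, a short peak in intron 3 that reaches into an exon (chr3:88157875-88158163) had values of 88, 79 and 89 in control and 57, 32 and 39 in Taf4a sKO libraries. It fell by 1.02 ± 0.24 (SE) on the log2 scale (limma, adjusted p = 0.0012), the largest called fall among the 34 peaks outside Tcf4, although the ratio of its means was just short of the threshold for a lost peak. In the sum of the 6 Mef2d peaks the genotypes overlapped, with 7115 ± 728 in control and 7314 ± 414 in Taf4a sKO MuSCs (SD, n = 3 each, two-sided exact permutation test, p = 0.8).

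**Figure D4:**
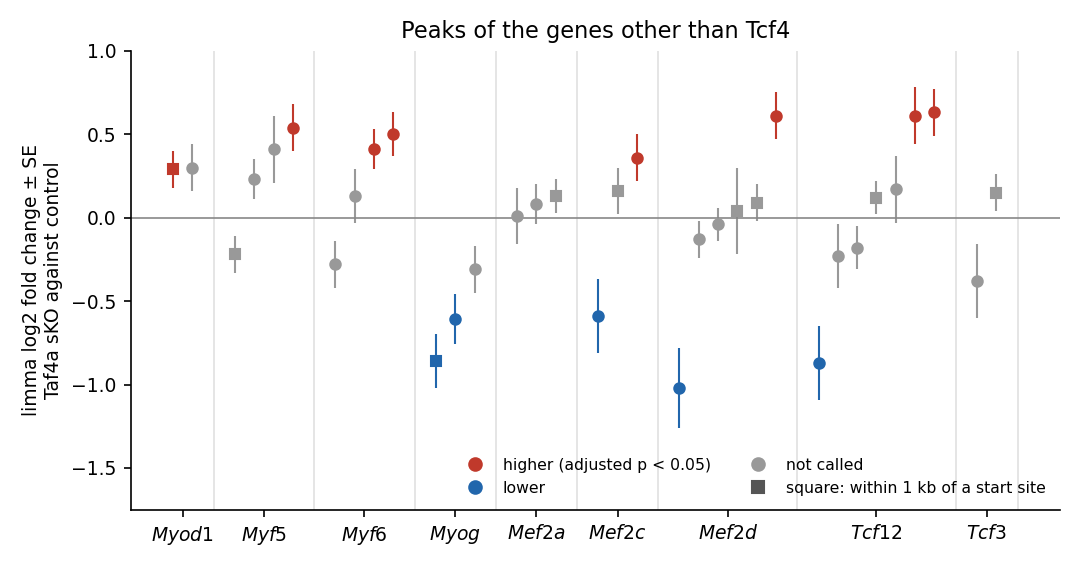
Limma log2 fold change of Taf4a sKO against control with its SE (y axis) for the 34 peaks of the 9 genes other than Tcf4, ordered within each gene by the change itself; red and blue mark peaks called higher and lower, grey peaks not called, and squares lie within 1000 bp of a start site. Of the 9 squares 1 is red (Myod1) and 1 blue (Myog), and Mef2c, Mef2d and Tcf12 each hold red and blue points.

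Of the E proteins Tcf12 and Tcf3, partners of the myogenic factors, neither promoter peak was called. The Tcf12 promoter peak (chr9:72110707-72112332) had values of 1933, 1916 and 2317 in control and 2152, 2269 and 2250 in Taf4a sKO MuSCs (log2 fold change 0.12 ± 0.10 (SE), limma, adjusted p = 0.38, or 0.21 and 0.026 without control replicate 3). The Tcf3 promoter peak (chr10:80433104-80434393) had values of 2708, 2391 and 3131 in control and 3160, 2964 and 2938 in Taf4a sKO MuSCs (0.15 ± 0.11 (SE), limma, adjusted p = 0.29, or 0.25 and 0.014 without control replicate 3). Genotypes overlapped at both promoters.

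Of the 6 peaks of Tcf12 other than that of the promoter, 2 rose, 1 fell and 3 were not called, against 28.0% higher and 13.9% lower among all peaks. In intron 12 a peak (chr9:71877945-71878493) had values of 174, 191 and 191 in control and 268, 282 and 310 in Taf4a sKO libraries, a rise of 0.63 ± 0.14 (SE, limma, adjusted p = 0.0013). In intron 3 a peak (chr9:72076118-72076697) rose by 0.61 ± 0.17 (SE, limma, adjusted p = 0.0044), from a mean of 105 to 161. In intron 5 the peak whose sequence is printed above, with CAGGTG among its E-boxes (chr9:71976040-71976389), had values of 108, 80 and 80 in control and 49, 58 and 39 in Taf4a sKO libraries and fell by 0.87 ± 0.22 (SE, limma, adjusted p = 0.0031). None of these 3 peaks overlapped between genotypes. Tcf3 had 1 further peak, in intron 8, with a log2 fold change of -0.38 and overlapping values (limma, adjusted p = 0.18).

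Tcf4 had the most peaks of the 10 genes. Its 51 peaks, 4 with the symbol and 47 without an assigned gene, spread over a gene of 345723 bp on chromosome 18. Of these, 27 rose (52.9%, against 28.0% of all peaks), 2 fell (3.92%, against 13.9%) and 22 did not pass the test, with a median log2 fold change of 0.40 against 0.11 for all peaks (27 and 3 with TMM scaling, against 25.4% and 22.3% of all peaks, and 21 and 5 with quantile normalization, against 24.8% and 25.1%). Positive log2 fold changes were found in 44 of the 51 peaks (86.3%), against 61.1% of all peaks. The summed values were 16207, 16065 and 19451 in control and 23188, 23209 and 22308 in Taf4a sKO MuSCs. Each Taf4a sKO sum exceeded each control sum, by 0.41 log2 units between the means (two-sided exact permutation test, p = 0.1).

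Among the 10 peaks with the smallest adjusted p of all members, 9 belonged to Tcf4 and 1 was the Myog promoter peak. The strongest was a peak in intron 8 (chr18:69627494-69627809) with values of 43, 45 and 42 in control and 168, 169 and 175 in Taf4a sKO MuSCs. Its mean rose from 43.3 to 171, a log2 fold change of 1.95 ± 0.19 (SE, limma, adjusted p = 3.6e-08), and the values within each genotype lay close together. A neighbouring peak in the same intron (chr18:69624391-69625137) had values of 258, 269 and 273 in control and 534, 592 and 546 in Taf4a sKO libraries, a rise of 1.06 ± 0.13 (SE, limma, adjusted p = 9.1e-07).

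Farther upstream, another intron 8 peak (chr18:69567434-69567846) had values of 97, 134 and 133 in control and 239, 267 and 275 in Taf4a sKO libraries (log2 fold change 1.11 ± 0.16 (SE), limma, adjusted p = 1.1e-05). In intron 3 a peak (chr18:69409536-69410199) had values of 183, 261 and 383 in control and 637, 632 and 592 in Taf4a sKO libraries (1.23 ± 0.21 (SE), limma, adjusted p = 0.00034). These 4 were the gained peaks, and in none of them did the genotypes overlap. With TMM scaling 2 peaks remained above the threshold, without control replicate 1 there were 2, and without control replicate 3 there were 9.

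Peaks at start sites of Tcf4 were also among those that rose. The gene has 58 annotated start sites, and of the 9 peaks within 1000 bp of any of them 5 rose, none fell and 4 were not called, against 22 that rose of the 42 others and 28.0% higher and 13.9% lower among all peaks (4 higher and 1 lower of the 9 with quantile normalization). The peak at an internal start site (chr18:69521372-69522378) had values of 371, 425 and 521 in control and 774, 744 and 827 in Taf4a sKO MuSCs, without overlap, and rose by 0.84 ± 0.13 (SE, limma, adjusted p = 2e-05). A smaller rise, 0.31, was found in the peak at the principal start site (chr18:69344040-69344734). It had values of 1473, 1290 and 1632 in control and 1819, 1816 and 1790 in Taf4a sKO libraries (limma, adjusted p = 0.022). This peak was named after its values were seen. Within each library the ratio of start site peaks to other peaks differed by -0.15 log2 units in Taf4a sKO MuSCs, without overlap (two-sided exact permutation test, p = 0.1). With a window of 3000 bp around start sites the difference was -0.05.

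The remaining named peaks of Tcf4 were the peak next to the internal start site (chr18:69523342-69524048; log2 fold change 0.96, limma, adjusted p = 4.2e-05) and 4 others with log2 fold changes of 1.01 (chr18:69440160-69440696), 0.78 (chr18:69509224-69509675), 0.95 (chr18:69414662-69414838) and 0.60 (chr18:69516528-69517790). In all 5 the Taf4a sKO values exceeded the control values. The 2 peaks that fell lay close to each other in intron 3. The lost peak (chr18:69433900-69434064) had low values of 40, 44 and 51 in control and 8, 16 and 17 in Taf4a sKO libraries, and dropped by 1.71 ± 0.34 (SE) on the log2 scale (limma, adjusted p = 0.0003), and the other (chr18:69428386-69428966) fell by 0.60 from a mean of 122 to 80.0.

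**Figure D5:**
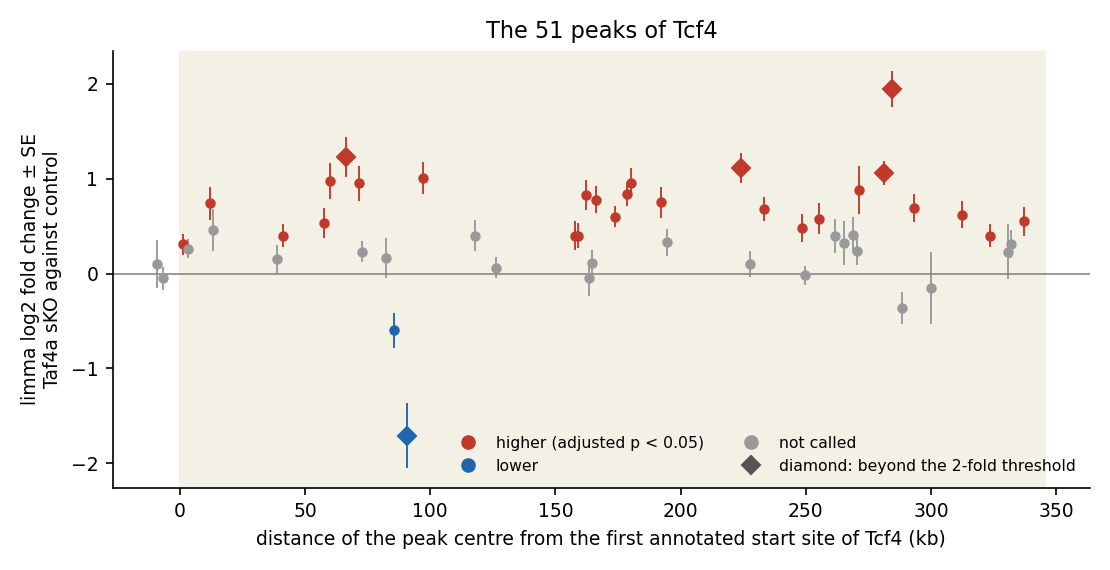
Limma log2 fold change with its SE (y axis) of the 51 Tcf4 peaks. The x axis gives the distance (kb) of the peak centre from a start site near the beginning of the gene. The shaded band is the gene, red and blue mark peaks called higher and lower, grey peaks not called, and diamonds exceed the 2-fold threshold. Red points extend along the whole gene, the 2 blue points lie next to each other, and the 2 peaks before the gene are grey.

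Sequence features beyond the rule were counted in windows of 300 bp at the centre of each peak, on both strands. CANNTG, which includes the more specific forms that follow, was present in 76.5% of the 85 members and in 80.4% of all peaks. CAGCTG was present in 15 members (17.6%) against 29.1% of all peaks, and CACCTG or CAGGTG in 14 (16.5%) against 18.3%. CCAAT or ATTGG, the element bound by NF-Y, was found in 22 members (25.9%) and in 32.2% of all peaks, TGACTCA or TGAGTCA in 17 (20%) and 17.2%, and the MEF2 box in 5 (5.88%) and 2.94%. Of the 35 members that rose 9 held TGACTCA or TGAGTCA, of the 43 not called 8, and of the 7 that fell 0. In the same order CANNTG was held by 29, 31 and 5, CAGCTG by 6, 7 and 2, and CACCTG or CAGGTG by 3, 9 and 2. For CCAAT or ATTGG the counts were 10, 10 and 2, and for the MEF2 box 1, 4 and 0. These small counts were not tested.

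The wider network of these factors was taken from lists of genes, by the same rule for peaks and the same limma fit. Counts with TMM scaling in these lists stand against 25.4% higher and 22.3% lower among all peaks. Repressors and inhibitors of myogenic bHLH factors had 64 peaks, of which 23 were higher (35.9%, against 28.0% of all peaks) and 3 lower (4.69%, against 13.9%), with a median log2 fold change of 0.21 (20 and 7 with TMM scaling). The largest rise was at a peak 6974 bp downstream of the start site of Msc (musculin, a repressor that binds E-boxes; chr1:14747265-14748118), which had values of 108, 104 and 117 in control and 318, 367 and 314 in Taf4a sKO MuSCs (log2 fold change 1.59 ± 0.15 (SE), limma, adjusted p = 3.8e-08). All 4 peaks of Msc were higher. The largest fall was in intron 1 of Zeb1, with means of 144 and 85.3 (-0.77, limma, adjusted p = 0.002).

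Promoter peaks of the inhibitors did not follow a common direction. Id3, whose product binds E proteins and keeps them from DNA, had promoter values of 4583, 3761 and 4953 in control and 3417, 3235 and 3017 in Taf4a sKO MuSCs, a fall of 0.45 ± 0.11 (SE, limma, adjusted p = 0.0016) without overlap. Id1 had a log2 fold change of -0.24 (limma, adjusted p = 0.07, or -0.35 and 2.1e-05 with TMM scaling) and Id2 one of 0.06 (adjusted p = 0.66). Mdfi, which encodes an inhibitor that retains myogenic factors in the cytoplasm, rose at its promoter by 0.45 ± 0.12 (SE) from a mean of 628 to 858 (limma, adjusted p = 0.0031). The Msc promoter rose by 0.31 ± 0.10 (SE, limma, adjusted p = 0.015), a call that was lost without control replicate 1 (log2 fold change 0.29, adjusted p = 0.087), Taf4a sKO replicate 1 (0.29 and 0.073) or Taf4a sKO replicate 3 (0.30 and 0.083).

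Cofactors of the myogenic factors had 101 peaks, of which 29 were higher (28.7%) and 12 lower (11.9%), shares close to the 28.0% and 13.9% of all peaks, with a median of 0.16. With TMM scaling 28 were higher and 22 lower. An intronic peak of Tead1, a transcription factor of the Hippo pathway, was among the peaks that rose most, level at 2 decimals with another peak of the gene (means of 163 and 439, log2 fold change 1.42, limma, adjusted p = 6e-08), and an intronic peak of Tead4 (68.7 and 23.3, -1.53, adjusted p = 0.00018) was level at 2 decimals with the Hdac9 promoter as the largest fall. Upstream regulators had 72 peaks with 20 higher (27.8%, against 28.0% of all peaks) and 18 lower (25.0%, against 13.9%), or 17 and 21 with TMM scaling. Of these 72 peaks, 9 were lost and 1 was gained, against 5.36% and 7.02% of all peaks. At Pax3, a paired-box factor upstream of Myf5 and Myod1, an intronic peak rose most (191 and 426, 1.15, limma, adjusted p = 7.1e-07), whereas in intron 1 of Eya2, a cofactor of homeobox factors, a peak fell from 97.7 to 18.3 (-2.35 ± 0.24 (SE); adjusted p = 1.3e-07).

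Target genes of the myogenic factors had 58 peaks, of which 15 were higher (25.9%) and 10 lower (17.2%), near the 28.0% and 13.9% of all peaks, with a median of 0.05 (15 and 16 with TMM scaling). In Musk, the receptor kinase of the neuromuscular junction, an intronic peak rose most, with values of 10, 17 and 20 in control and 58, 73 and 40 in Taf4a sKO libraries (log2 fold change 1.81, limma, adjusted p = 0.0001). In Myl4, an embryonic myosin light chain gene, an intronic peak fell most, from a mean of 36.3 to 11.3 (-1.61, limma, adjusted p = 0.00067). No peak was found by the rule for Myh8 and Meox2.

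Peaks of marker genes were summed to describe the cells in the libraries, in which other cells had been depleted before sorting by the surface proteins SCA1, CD45 and CD31. For its sorted cells the study reported incomplete purity on reanalysis. All 10 MuSC markers, which include the member Myf5, had a promoter peak, so that the defining markers of the labelled cell type were accessible in all libraries. Their sums were 68444, 52932 and 64390 in control and 69045, 63482 and 65125 in Taf4a sKO libraries. Pax7 led them, with 34932, 22723 and 26316 in control. Promoter peaks were also found at 4 of 5 mesenchymal, 3 of 4 smooth muscle and pericyte, 3 of 6 endothelial, 3 of 5 myonuclear and 1 of 6 haematopoietic markers. For mesenchymal cells 4 of 5 markers had peaks, with sums of 6427, 5658 and 6983 in control and 9215, 8365 and 8163 in Taf4a sKO libraries, led by Col1a1 (ratio of means 1.35), and Ly6a had no peak. Smooth muscle and pericyte markers, all 4 with peaks and led by Cspg4, summed to 8495, 7950 and 9756 in control and 11319, 11050 and 11025 in Taf4a sKO libraries (ratio 1.27). Both sums were higher in each Taf4a sKO library than in any control library. These sums were not rescaled, and 32.3% of all peaks were higher without overlap. The median log2 fold change was 0.36 over the 13 mesenchymal peaks and 0.35 over the 22 smooth muscle and pericyte peaks, against 0.11 for all peaks. With TMM scaling these medians were 0.25 and 0.24, against -0.01.

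Endothelial markers (4 of 6 with peaks, led by Tek; Tie1 and Emcn had none) summed to 9167, 8348 and 10282 in control and 11448, 10933 and 10416 in Taf4a sKO libraries, again without overlap (ratio 1.18). The median log2 fold change of the 23 endothelial peaks was 0.29, or 0.18 with TMM scaling. Only Pecam1 was higher without overlap (2296, 2212 and 2610 in control against 3461, 3195 and 3014 in Taf4a sKO libraries), whereas Tek and Kdr overlapped. Cdh5 went the other way, with 171, 150 and 214 in control and 167, 138 and 126 in Taf4a sKO libraries, which overlapped. Of the haematopoietic markers 3 of 6 had peaks, led by Spi1, and Ptprc, Itgam and Laptm5 had none. The sums were 1331, 1456 and 1594 in control and 1685, 1581 and 1875 in Taf4a sKO libraries, which overlapped. Cd68 was lower without overlap (201, 208 and 307 against 129, 133 and 129). Csf1r (192, 249 and 297 against 461, 395 and 507) and Spi1 (938, 999 and 990 against 1095, 1053 and 1239) were higher without overlap. Myonuclear markers (all 5 with peaks) had a ratio of 0.925, with overlapping sums. Here Acta1 was lower without overlap (1171, 1194 and 1419 against 1035, 901 and 854), whereas Ckm, Myh1, Myh4 and Tnnt3 overlapped. The part of these differences in the results above was not tested.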

How the data were processed

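Each value of the deposited table is a score for 1 peak in 1 library. The authors counted reads with featureCounts in peaks called by MACS in each library and unified, scaled the counts for sequencing depth and rounded them. Before, the authors trimmed reads with Trimmomatic 0.39, aligned them with STAR 2.7.11b to mm10 and removed duplicates with Picard 3.1.1, per the processing notes. A Tn5 shift is not described in the sources used here. Since such scores are not raw counts, limma 3.58.1 under R 4.3.3 (trend and robust moderation) was fitted to log2(value + 1) over the whole table (mean above 10, pseudocount 1, genotype only), with Benjamini-Hochberg adjustment. The fit was tested on simulated data, and the outcome is not quoted here. A limma p-value here tests the difference between genotypes against the variance between libraries, 3 a genotype, moderated over all peaks.

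All 10 genes are named. Peaks named in the text are, per gene, the one nearest a start site and the called peaks with the largest rise and fall; the 10 members with the smallest adjusted p; gained and lost members; the largest called rise and fall among flanking peaks and in each network list; promoters of Id1, Id2, Id3, Msc and Mdfi; and exon 12 and the promoter of Taf4. Further peaks described were chosen after their values were seen. The members, lists and rules were chosen with earlier results of these data known. Features came from GENCODE vM21 and sequences from RefSeq and GRCm38.p6; 7 of the 10 genes matched the promoter table. CANNTG was added after seeing the data. Marker and network lists follow the rule for members. The result of 1 marker list is not reported here. Alternatives were the scaling (TMM, median of ratios, quantile), the minimum, the pseudocount (5), the moderation, the threshold, the choice of peaks, a replicate block and each library left out. The spacing of whole numbers that never occur in a library gave the factor by which its counts had been multiplied, from 1.00 in control replicate 2 to 1.39, with 0 mismatches. Coordinates are those of the table. No per-sample column was left unused.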

Additional observations from a re-analysis of the deposited data

How the results depend on the processing

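Of the 43 named peaks other than those of Taf4, 34 were called, and over the TMM, quantile, pseudocount, replicate block and leave-one-out settings 397 of 430 values kept direction and side of the threshold, 16 lost and 10 gained a call, and 7 values of peaks that were not called changed sign. These were the start-site peaks of Mef2c (-0.03 with quantile normalization), Mef2d (-0.02 with TMM, -0.01 with quantile normalization) and Tcf12 (-0.01 with quantile normalization) and the Id2 promoter (-0.05 with TMM, -0.06 with quantile normalization, and -0.00 without control replicate 2 to 0.15 when a library was left out). The cause was not tested. Members called higher numbered 28 to 46 of 85 when a library was left out (35 with all), 6 with symbols only and 8 of 34 without Tcf4. All counts with symbols only or without Tcf4 come from fewer than 85 peaks. Shares of all peaks with a library left out are not given here. In those settings a change of the members cannot be told apart from a change of the whole table. Members called lower (7) numbered 14 with TMM, 14 with median-of-ratios, 16 with quantile normalization and 2 with symbols only, and 6 to 8 when a library was left out. Gained members (4) numbered 2 with TMM or median-of-ratios, 1 with quantile normalization, 22 at a 1.5-fold threshold, 1 at a log2 ratio of 1.5, 0 with symbols only or without Tcf4, and 2 to 9 when a library was left out (2 without control replicate 1, 9 without control replicate 3, 8 without Taf4a sKO replicate 3). Lost members (1) numbered 2 with TMM or median-of-ratios, 3 with quantile normalization, 7 at a 1.5-fold threshold, 0 with a mean above 50, with symbols only or without Tcf4, and 1 to 2 when a library was left out.

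With TMM and quantile normalization, cofactor peaks called lower numbered 22 and 20, those of repressors 7 and 8 and those of targets 16 and 19, and flanking peaks called higher numbered 3 with TMM. Leaving out a library gave 24 to 46 higher cofactor peaks, 16 to 37 higher repressor peaks (46 and 37 without control replicate 3), 3 to 6 higher and 5 to 8 lower flanking peaks. The lists and flanks, and the counts without Tcf4, were tried after seeing the data.

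Log2 ratios of the gene sums under TMM and median-of-ratios were 0.18 and 0.18 for Myod1, 0.19 and 0.19 for Myf6, -0.68 and -0.68 for Myog, 0.00 and 0.00 for Mef2a, -0.02 and -0.03 for Mef2c, and -0.02 and -0.03 for Tcf12, and with symbols only the ratio for Tcf4 was 0.23. For the sum of the Myf5 peaks both scalings gave -0.15, against -0.05 without rescaling. The promoter against other peaks was -0.46 for Myf5 with a window of 3000 bp, and for Tcf4 -0.23 with 500 bp and -0.05 with 3000 bp. The Taf4 promoter peak was called lower with TMM (-0.19) and quantile normalization (-0.20). Deviations from the group means had correlations of 0.11, -0.118 and -0.029 between same-numbered libraries, and from -0.12 to 0.151 between the others. With 3 libraries a genotype such values cannot show whether the numbers pair samples, and the main fit did not pair them. With the replicate block 35 members were higher and 7 lower, and among the named peaks the Mef2c intron 1 peak lost its call (limma, adjusted p = 0.056).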
